A study of Homo sapiens and Mus musculus with 213 samples.

Results

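The BCL2 family regulators of apoptosis described here are the 10 genes BCL2, MCL1, BCL2L2, BAX, BAK1, BBC3, PMAIP1, BCL2L11, BID and BMF, found by symbol through the GENCODE annotation of hg38. All 10 were among the 58336 genes listed in the RNA-seq tables, and all 10 were among the 20884 that averaged 10 or more normalized counts and were therefore tested. Expression was measured in HEK293T, an immortalized line of human embryonic kidney origin that carries the large T antigen of SV40, a viral protein that binds p53. The 9 RNA-seq libraries, of 213 samples in the series, were 3 each of MYC WT, MYC MUT and SWP cells. MYC WT cells keep the natural G-quadruplex (G4) motif upstream of the MYC promoter, a G-rich sequence that can fold into a four-stranded structure. MYC MUT cells carry point mutations in the G-runs of that motif, which prevent folding, and in SWP cells the motif was removed and replaced with the G4 motif of another gene, which can fold. Both edits were made by CRISPR and are homozygous in lines expanded from single cells, and which clones gave the RNA is not given in the sources used here. The comparisons set the 3 lines against each other, with SWP as the line in which a G4 of another sequence stands in the same place. Edit and clone cannot be told apart in them.

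The BCL2 family sets the permeability of the mitochondrial outer membrane. Its effector proteins BAX and BAK form pores through which cytochrome c leaves the mitochondria and activates caspases, its antiapoptotic proteins hold the effectors back, and its BH3-only proteins report stress by binding the antiapoptotic proteins or the effectors. MYC is known both to drive proliferation and to sensitize cells to apoptosis, and several BH3-only genes are transcribed in response to p53, to the integrated stress response or to FOXO factors.

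The libraries held 65024354 to 98497026 reads assigned to genes. MYC, the edited gene, had 20020, 28396 and 21580 normalized counts in MYC WT, 10693, 11176 and 12400 in MYC MUT, and 14480, 24743 and 25245 in SWP. All 3 MYC MUT libraries lay below all 6 others. For MYC the log2 fold change was -1.02 in MYC MUT against MYC WT (limma adjusted p = 0.00182) and -0.15 in SWP against MYC WT (adjusted p = 0.712). Adjusted p-values are from limma with Benjamini-Hochberg adjustment over all genes tested, and a gene was called at an adjusted p under 0.05 with a log2 fold change beyond 0.5. The 6 markers of the HEK293 lineage were all expressed, the 4 pluripotency markers were near 0, and of 9 blood cell and fibroblast markers 4 were below the minimum (PTPRC, CD3E, COL1A2 and DCN), while COL1A1 reached a mean of 1907 in MYC MUT. Between MYC MUT and MYC WT 4 of the 6 lineage markers were called (PAX2, LHX1 and NEFL higher, NEFM lower), with CD14 and COL1A1 higher among the others, and between SWP and MYC WT NEFL was called lower and LUM higher. The part of these differences in the results was not tested. A sequencing pool is named for the libraries of MYC WT and not for those of MYC MUT or SWP, so that pool and line cannot be told apart in any comparison with MYC WT. In total RNA of a culture, fewer cells that express a gene and less RNA per cell cannot be told apart. The labels number the replicates of a line under the prefix Bio and do not say whether they came from separate cultures, so p-values measure the spread between these libraries.

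Per kilobase of exon, BAX stood highest of the 10, at 4607 normalized counts per kb (mean of the 9 libraries). PMAIP1 followed with 3723 per kb and MCL1 with 3134 per kb. The other effector, BAK1, reached 1216 per kb. BID had 635, BBC3 601, BCL2L2 473, BCL2L11 388 and BMF 239 normalized counts per kb. BCL2, the gene that names the family, was lowest at 73.5 per kb. The order of these means was the same in the 3 lines except around BBC3, which was above BID in SWP (719 against 665 per kb) and below BCL2L2 in MYC MUT (488 against 541 per kb). Exon length was taken over all annotated transcripts of a gene, and reads per gene do not separate the splice forms of MCL1 or BCL2L11, which encode proteins of unlike activity.

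**Figure D1:**
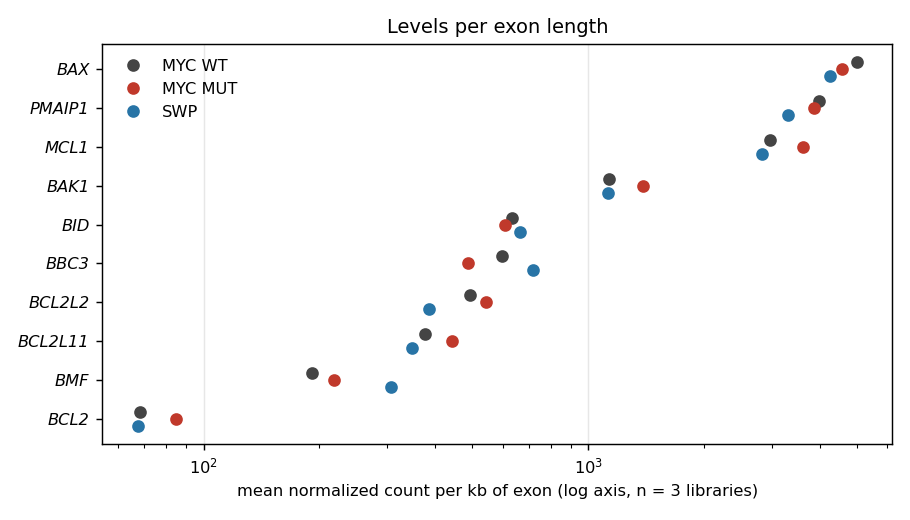
Mean normalized count per kilobase of exon on a log axis for the 10 genes, 1 point per line (n = 3 libraries). BAX, PMAIP1 and MCL1 stand highest, between 2829 and 4990 per kb in every line, and BCL2 lowest, between 67.5 and 84.9 per kb.

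In MYC MUT against MYC WT, none of the 10 genes was called by limma (0 of 10), where 21.4% of all 20884 genes tested were called. At an adjusted p under 0.05 alone, 2 of 10 passed, BCL2 and BCL2L11, against 38.4% of all genes, and 4 of 10 had an unadjusted p under 0.05. By adjusted p alone edgeR passed 2 and DESeq2 4 of the 10, and neither called any at the fold threshold. In 4 of 10 genes (BCL2, MCL1, BAK1 and BCL2L11) the 3 MYC MUT libraries did not overlap the 3 MYC WT libraries, each time lying higher, where 25.9% of all genes lay higher without overlap and 52.3% did not overlap in either direction. The median log2 fold change of the 10 was 0.19, beside -0.003 over all genes tested, and the median size of change was 0.24, beside 0.27. An exact two-sided permutation test of 1 gene, with 3 libraries against 3, cannot give a p below 0.1. Of the 4476 genes called in this comparison 52.8% were higher in MYC MUT, and 64.2% of 4474 when the libraries were scaled to equal totals.

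In SWP against MYC WT, again none of the 10 was called by limma, where 5.13% of all genes were, although 3 had an unadjusted p under 0.05 and DESeq2 called 1, BMF. In the fit with replicate number as a block, 1 of 10 was called, BMF, where 7.01% of all genes were. Same-numbered libraries of MYC WT and SWP deviated together, though only weakly for replicate 3 (r = 0.555, 0.403 and 0.102). The block was fitted over all 9 libraries, those of MYC MUT included. BCL2L2 alone passed an adjusted p under 0.05 without the block (1 of 10, against 9.97% of all genes), and with the block 5 of 10 passed against 20.2%. The median log2 fold change was -0.04, beside -0.06 over all genes. When MYC MUT was set against SWP, 1 of 10 was called, BBC3, where 20.6% of all genes were called. At an adjusted p under 0.05 alone 5 of 10 passed (38.0% of all genes), and with the block 8 of 10 (50.4%), while 1 of 10, again BBC3, was called with the block (22.9%). Any pair of these comparisons has a line in common, so their values stand side by side and are not independent of each other.

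**Figure D2:**
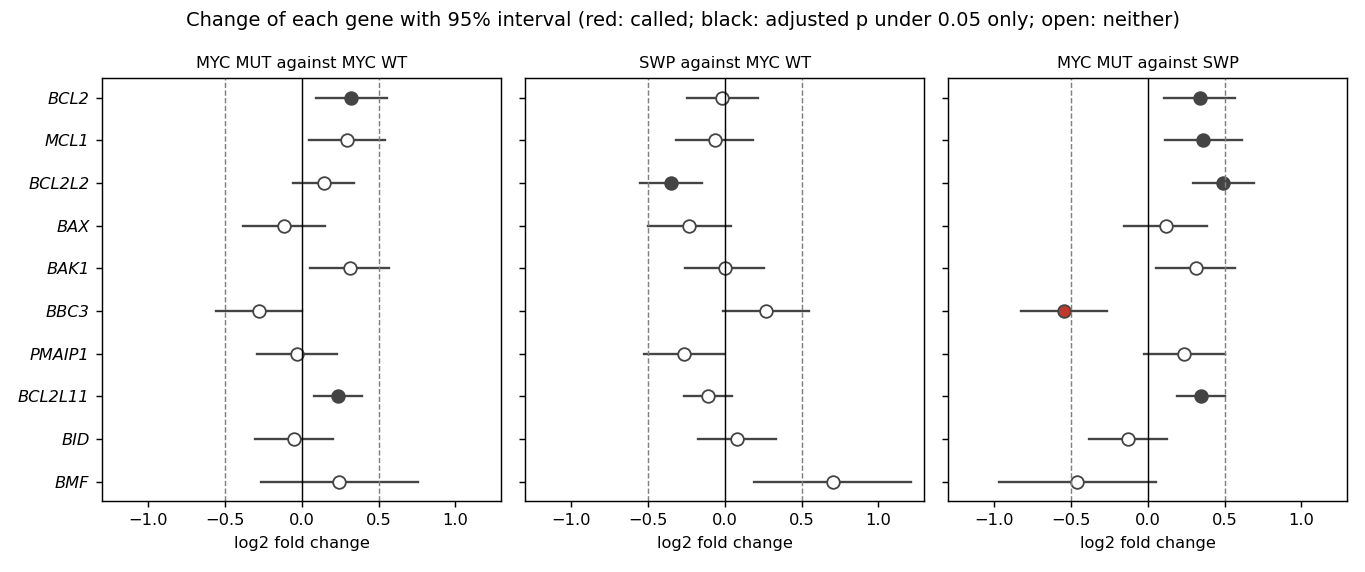
Log2 fold change of each gene with its 95% interval in the 3 comparisons (n = 3 libraries per line). Values are from limma without the replicate block, and dashed lines mark the fold threshold of 0.5 in either direction. Only BBC3 in MYC MUT against SWP is called, and the interval of BMF is the widest, reaching 0.51 to either side of its value.

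The antiapoptotic genes were BCL2, MCL1 and BCL2L2. BCL2 encodes the founding inhibitor of BAX and BAK on the mitochondrial and endoplasmic reticulum membranes. It had 856, 948 and 774 normalized counts in MYC WT, 1077, 1037 and 1098 in MYC MUT, and 753, 851 and 950 in SWP. The MYC MUT libraries were the 3 highest of the 9, and the other lines overlapped. In MYC MUT BCL2 reached 125% of the MYC WT level, or 0.32 ± 0.11 (SE, n = 3 libraries per line) as a log2 fold change with a 95% interval of 0.09 to 0.55 (adjusted p = 0.0318), below the fold threshold. Against SWP the log2 difference was 0.34 (adjusted p = 0.0260), and between SWP and MYC WT it was -0.02 with an interval of -0.25 to 0.22 (adjusted p = 0.953). The genes whose counts followed BCL2 most closely over the 9 libraries were ADGRL1 (Pearson r = 0.972), KDM6B (0.971) and COL4A1 (0.970), among 16867 genes averaging 50 or more. Those 9 points fall into 3 lines, so this likeness describes mostly the difference between lines.

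MCL1, a short-lived protein that holds BAK and is replaced by continued synthesis, had 21496, 16362 and 17448 normalized counts in MYC WT. In MYC MUT the counts were 23195, 22014 and 22202, and in SWP 20481, 15784 and 16537. All 3 MYC MUT libraries exceeded the highest MYC WT library, but replicate 1 of both other lines came close. The log2 fold change in MYC MUT against MYC WT was 0.30 ± 0.11 (SE), with an interval of 0.05 to 0.54 and an adjusted p of 0.0597. Against SWP it was 0.36 (adjusted p = 0.0265). Of 4 genes for enzymes that mark MCL1 protein for breakdown or remove the mark, none was called in any of the 3 comparisons. Of all genes 21.4% were called in MYC MUT against MYC WT, 5.13% in SWP against MYC WT and 20.6% in MYC MUT against SWP. USP9X, the deubiquitinase that stabilizes MCL1, changed by 0.31 in MYC MUT against MYC WT (adjusted p = 0.0397) and HUWE1, a ligase that marks it, by -0.30 (adjusted p = 0.0916). In the same comparison BTRC changed by -0.29 (adjusted p = 0.0106) and FBXW7 by -0.11 (adjusted p = 0.222). The libraries of MYC MUT and MYC WT overlapped for USP9X and HUWE1 and not for BTRC and FBXW7.

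BCL2L2, which encodes the antiapoptotic protein BCL-w, had 2128, 2610 and 2406 normalized counts in MYC WT, 2586, 2767 and 2507 in MYC MUT, and 1785, 2033 and 1777 in SWP. It was the only one of the 10 genes in which the SWP libraries did not overlap those of MYC WT, all lying lower, where 15.5% of all genes did. SWP had 78.3% of the MYC WT level, a log2 fold change of -0.35 ± 0.09 (SE, n = 3), with an adjusted p of 0.0323. Over all alternatives that adjusted p lay between 0.00263 (replicate block) and 0.109 (without SWP replicate 3). It was 0.0644 with edgeR and 0.0990 when limma was fitted to SWP and MYC WT only. MYC MUT and MYC WT overlapped, at a log2 fold change of 0.14 with an interval of -0.06 to 0.34 (adjusted p = 0.242). In MYC MUT against SWP the difference was 0.49 (adjusted p = 0.00147), just inside the fold threshold, and it was called at 0.50 without MYC MUT replicate 1, at 0.52 without MYC MUT replicate 3 and at 0.56 without SWP replicate 2. BCL2L2 shares 815 exon bases, 16.8% of its exon length, with the read-through gene BCL2L2-PABPN1, which had a mean normalized count of 73.0, and 315 bases with PPP1R3E on the opposite strand (mean 891), and use of strand in the counting is not given in the sources used here.

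**Figure D3:**
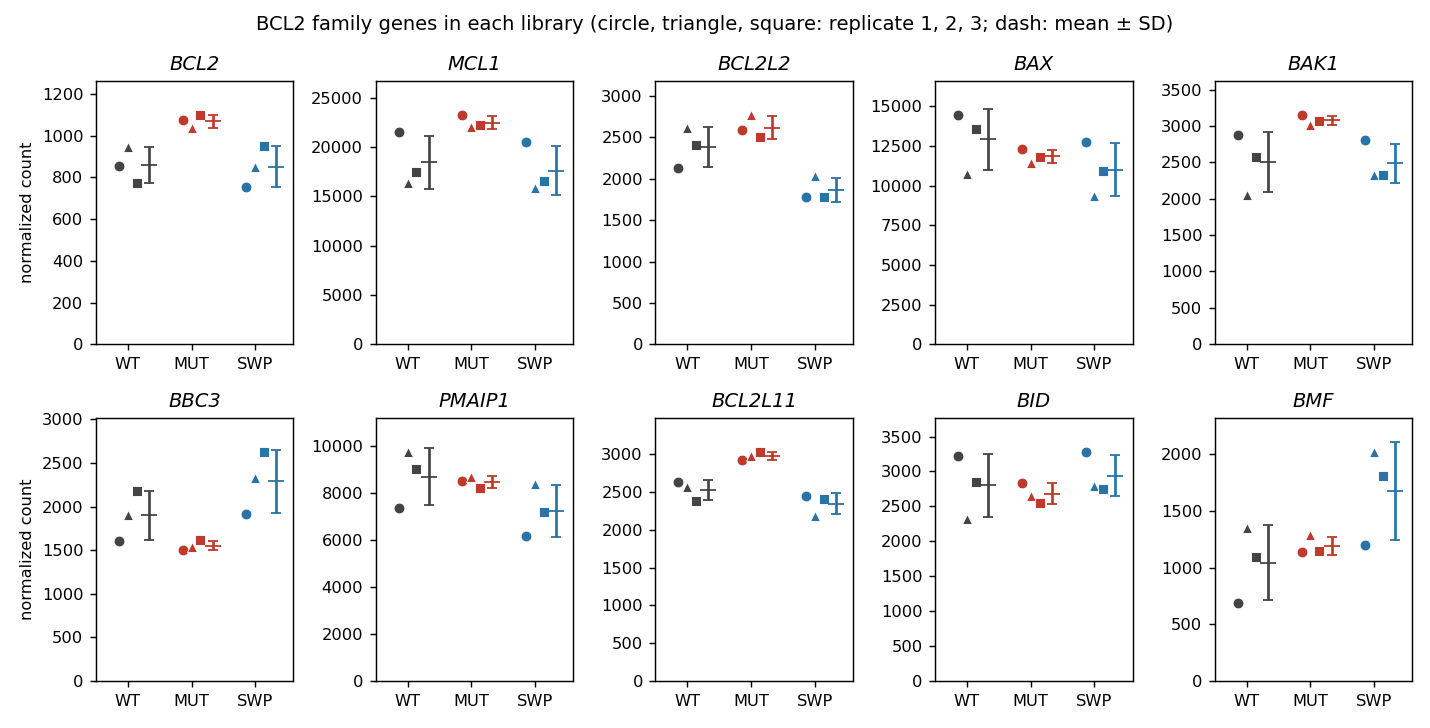
Normalized counts of the 10 genes in each of the 9 libraries, by line, with replicates 1, 2 and 3 as circle, triangle and square and the mean ± SD (n = 3) beside them. The MYC MUT libraries lie close together in every panel, and in BMF replicate 1 is the lowest library of each line, at 689, 1141 and 1196.

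Of the effectors, BAX is held in the cytosol of healthy cells and moves to the mitochondria when activated. Its promoter is shown because it holds 4 copies of CACGTG, the E-box to which MYC binds with its partner MAX, while 7.26% of 35116 human promoter windows of the same length hold at least 1 copy and 5 windows (0.0142%) hold 4 or more. The sequence below is from RefSeq (GRCh38.p14, chr19:48954625-48954924, plus strand), runs from 250 bases before the annotated start to 50 bases after it, and has the E-boxes in capitals, which begin at positions 113, 158, 206 and 237 counted from its first base.

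BAX promoter: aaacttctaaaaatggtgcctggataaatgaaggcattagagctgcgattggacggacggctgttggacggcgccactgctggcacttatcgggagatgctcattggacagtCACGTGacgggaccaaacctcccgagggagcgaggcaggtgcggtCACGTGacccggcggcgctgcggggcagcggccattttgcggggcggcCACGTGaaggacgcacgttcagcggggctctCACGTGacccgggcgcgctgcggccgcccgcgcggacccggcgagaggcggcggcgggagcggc

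BAX had 14428, 10761 and 13538 normalized counts in MYC WT, 12281, 11434 and 11792 in MYC MUT, and 12728, 9360 and 10931 in SWP. The 3 lines overlapped throughout. The log2 fold change in MYC MUT, where MYC itself was at 49.0% of its MYC WT level, was -0.11 ± 0.12 (SE, n = 3), with an interval of -0.38 to 0.15 (adjusted p = 0.490). In SWP it was -0.23, with an interval of -0.50 to 0.04 (adjusted p = 0.289), and with the replicate block an adjusted p of 0.0333. A match to these letters describes the window and not binding.

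BAK1 encodes the effector BAK, which sits in the outer membrane and is kept inactive there by MCL1 and VDAC2 among others. It had 2879, 2055 and 2577 normalized counts in MYC WT, 3146, 3020 and 3066 in MYC MUT, and 2801, 2333 and 2328 in SWP. The MYC MUT libraries were again the 3 highest. The log2 fold change was 0.31 ± 0.12 (SE, n = 3) against MYC WT (adjusted p = 0.0553) and 0.31 against SWP (adjusted p = 0.0549), and SWP against MYC WT gave -0.001 with an interval of -0.26 to 0.26. Without MYC WT replicate 2 the difference between MYC MUT and MYC WT was 0.18 (adjusted p = 0.190). Of 6 tested partners in the mitochondrial membranes, 1 was called in MYC MUT against MYC WT (21.4% of all genes), the adenine nucleotide carrier SLC25A5 (log2 fold change -0.51, adjusted p = 0.00016). None was called in SWP against MYC WT or in MYC MUT against SWP (5.13% and 20.6% of all genes). In MYC MUT against MYC WT VDAC2 changed by -0.38 (adjusted p = 0.000554), below the fold threshold.

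Of the BH3-only genes, BBC3 encodes PUMA, a p53 target that binds all antiapoptotic members of the family. Its promoter window is printed for its E-box, 1 copy at position 19 (capitals). Of the 10 genes 8 have promoter windows in RefSeq, 13 in all, and the windows of 3 of them (BAX, BBC3 and BID) hold an E-box. It is from RefSeq, GRCh38.p14, chr19:47232618-47232917, minus strand.

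BBC3 promoter: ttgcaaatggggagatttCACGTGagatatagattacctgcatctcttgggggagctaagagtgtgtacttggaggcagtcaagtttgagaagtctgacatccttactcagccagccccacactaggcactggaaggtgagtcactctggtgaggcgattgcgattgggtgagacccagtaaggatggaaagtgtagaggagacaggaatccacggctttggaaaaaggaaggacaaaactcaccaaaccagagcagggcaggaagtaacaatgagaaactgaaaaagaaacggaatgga

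BBC3 had 1609, 1905 and 2179 normalized counts in MYC WT, 1506, 1540 and 1613 in MYC MUT, and 1913, 2329 and 2625 in SWP. The 3 MYC MUT libraries lay below the 3 SWP libraries, and MYC WT stood between and overlapped both. MYC MUT had 67.8% of the SWP level of BBC3, a log2 fold change of -0.55 ± 0.13 (SE, n = 3) with an interval of -0.83 to -0.27 (adjusted p = 0.00572). This was the 1 call among the 10 genes, in a comparison in which 8.31% of all genes were called lower, and it fell short of the fold threshold without SWP replicate 3, at -0.44 (adjusted p = 0.0266; 7.42e-05 to 0.0266 over all alternatives). Against MYC WT the values were -0.28 in MYC MUT (adjusted p = 0.106) and 0.27 in SWP (adjusted p = 0.227, and 0.0267 with the block), so neither line was called on its own. These became -0.17 in MYC MUT without MYC WT replicate 3 and 0.16 in SWP without either MYC WT replicate 1 or SWP replicate 3. BBC3 lies on chromosome 19, and its tested neighbours within 5 Mb on either side centred on -0.13 (median, log2) in that comparison. The genes most like BBC3 over the 9 libraries were ACOT7 (r = 0.979), COX4I1P1 (0.978), a processed copy whose reads can come from its parent gene, and UBXN1 (0.978).

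PMAIP1 encodes NOXA, which binds mainly MCL1 and is transcribed in response to p53 and to ATF4. Its promoter window holds 1 copy of TGACGT, the core of the cyclic AMP response element, as do 7.98% of all windows. PMAIP1 had 7357, 9743 and 9005 normalized counts in MYC WT, 8504, 8699 and 8219 in MYC MUT, and 6155, 8364 and 7193 in SWP. The lines overlapped, with SWP replicate 1 lowest and MYC WT replicate 2 highest. The log2 fold change was -0.03 in MYC MUT, with an interval of -0.29 to 0.23 (adjusted p = 0.869), and -0.27 in SWP (adjusted p = 0.198, and 0.0272 with the block), or -0.16 without SWP replicate 1. ATF4, the stress factor, fell in MYC MUT against MYC WT, with a log2 fold change of -0.66 (adjusted p = 0.009).

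BCL2L11 encodes BIM, a BH3-only protein that can activate BAX and BAK directly and whose gene is a FOXO target. Its window is printed for the forkhead site TGTTTAC, read as GTAAACA at position 28 on the strand shown (capitals), which 3.42% of all windows hold. It is from RefSeq, GRCh38.p14, chr2:111120664-111120963, plus strand, and it also holds a G4 motif (4 runs of at least 3 G with loops of 1 to 7 bases), which 25.0% of all windows hold.

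BCL2L11 promoter: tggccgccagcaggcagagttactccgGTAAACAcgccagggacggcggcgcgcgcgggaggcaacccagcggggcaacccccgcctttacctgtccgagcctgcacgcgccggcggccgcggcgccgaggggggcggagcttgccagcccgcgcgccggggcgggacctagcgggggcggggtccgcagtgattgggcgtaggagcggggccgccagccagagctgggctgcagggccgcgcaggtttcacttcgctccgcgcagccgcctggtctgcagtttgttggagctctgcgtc

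BCL2L11 had 2640, 2567 and 2385 normalized counts in MYC WT, 2930, 2972 and 3030 in MYC MUT, and 2447, 2189 and 2403 in SWP. It varied least of the 10 genes, with a coefficient of variation of 5.2%, 1.7% and 5.9% in MYC WT, MYC MUT and SWP, and the MYC MUT libraries lay above all others. MYC MUT had 118% of the MYC WT level, a log2 fold change of 0.24 ± 0.07 (SE, n = 3) with an interval of 0.08 to 0.39 (adjusted p = 0.0218), which is below the fold threshold. Against SWP the difference was 0.34 (adjusted p = 0.00285). FOXO3, which encodes a factor that can bind such a site, changed by 0.39 in MYC MUT against MYC WT (adjusted p = 0.00407) and rose by 0.53 against SWP (adjusted p = 0.000594), while FOXO4 changed by -0.46 (adjusted p = 0.0298) and fell by 0.69 (adjusted p = 0.00367). FOXO1 changed by -0.12 in MYC MUT against MYC WT (adjusted p = 0.361) and by -0.17 against SWP (adjusted p = 0.192). BCL2L11 shares 10.8% of its exon length with MIR4435-2HG on the opposite strand, which had a mean normalized count of 106.

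BID, which caspase-8 cleaves to link death receptors to the mitochondria, had 3225, 2323 and 2850 normalized counts in MYC WT, 2840, 2653 and 2546 in MYC MUT, and 3278, 2790 and 2746 in SWP. All 3 lines overlapped. The log2 fold change was -0.05 in MYC MUT against MYC WT, with an interval of -0.31 to 0.20, 0.08 in SWP against MYC WT and -0.13 in MYC MUT against SWP (adjusted p = 0.405 to 0.754). BMF, a BH3-only protein bound to the actin cytoskeleton and released by loss of attachment, was the most variable of the 10 genes. It had 689, 1349 and 1090 normalized counts in MYC WT, 1141, 1288 and 1147 in MYC MUT, and 1196, 2021 and 1813 in SWP. The highest library was 2.93 times the lowest, and the SWP libraries overlapped those of MYC WT because replicate 1 of SWP was below replicate 2 of MYC WT.

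SWP had 161% of the MYC WT level of BMF, the largest difference of any of the 10 genes, with a log2 fold change of 0.70 ± 0.23 (SE, n = 3), an interval of 0.19 to 1.21 and an adjusted p of 0.0841. With the replicate block the same difference was called, with an interval of 0.43 to 0.98 (adjusted p = 0.00226). It was also called by DESeq2 (0.73, adjusted p = 0.0122), without MYC WT replicate 2 (0.92, adjusted p = 0.0382) and without SWP replicate 1 (0.93, adjusted p = 0.0140). Without MYC WT replicate 1 it was 0.43, under the fold threshold (adjusted p = 0.171), and without SWP replicate 2 it was 0.55 (adjusted p = 0.236). Over all alternatives its adjusted p lay between 0.00226 and 0.236. In every SWP and MYC WT pair of the same replicate number, BMF was higher in SWP. In MYC MUT against SWP the difference was -0.46 (adjusted p = 0.143, and 0.00950 with the block), and it was called by DESeq2 at -0.53 (adjusted p = 0.0461) and without SWP replicate 1 at -0.69 (adjusted p = 0.0197).

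Replicate number moved with several of these genes, a pattern picked out after the values were seen. Replicate 1 was the highest library of its line in all 3 lines for MCL1, BAX, BAK1 and BID (4 of 10 genes, where 16.9% of all genes tested were), and the lowest in all 3 lines for BBC3 and BMF (2 of 10, where 17% were). For BMF, replicate 1 minus the mean of the other replicates was -0.81 on the log2 scale in MYC WT, -0.09 in MYC MUT and -0.68 in SWP. For CHAC1, a target of the integrated stress response, the same difference was -2.77, -1.37 and -2.80 in these lines, and for DDIT3 it was -1.91, -0.54 and -0.84. For the p53 targets CDKN1A and MDM2 it was positive, at 0.57, 0.26 and 0.58 for CDKN1A and 0.39, 0.22 and 0.64 for MDM2. Replicates were closest to each other in MYC MUT. The coefficients of variation of the 10 genes were 1.7% to 7.0% in MYC MUT, 5.2% to 31.9% in MYC WT and 5.9% to 25.6% in SWP. What set replicate 1 apart was not tested.

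Of 13 other genes of the family 10 passed the minimum level. Of these, 3 rose and 2 fell in MYC MUT against MYC WT, where 21.4% of all genes were called. In SWP against MYC WT none was called by limma without the block (5.13% of all genes), and in MYC MUT against SWP 2 rose and 1 fell (20.6% of all genes called). BCL2L1, which encodes the antiapoptotic BCL-xL, had 2302, 2236 and 2346 normalized counts in MYC WT, 4317, 4125 and 4471 in MYC MUT, and 2588, 2171 and 2373 in SWP. The MYC MUT libraries stood well apart from all others. Its log2 fold change was 0.91 ± 0.08 (SE, n = 3) against MYC WT (adjusted p = 8.11e-06). BCL2L1 lies on chromosome 20, and the median change of the 92 tested genes within 5 Mb of it was 0.35 in the same comparison.

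BIK, a BH3-only gene of low level, had 18, 13 and 13 normalized counts in MYC WT and 39, 43 and 39 in MYC MUT (log2 fold change 1.37, adjusted p = 0.000939). BOK, an effector relative of BAX, had 103, 147 and 107 in MYC WT and 45, 37 and 45 in MYC MUT (log2 fold change -1.45, adjusted p = 0.000371). Both lines stood apart in each gene. BCL2L12, on chromosome 19, fell by 0.57 (adjusted p = 0.000168), and its neighbours had a median of -0.20. BNIP3L, a mitophagy receptor with a BH3-like region, rose by 0.53 (adjusted p = 0.000983), and its neighbours on chromosome 8 had a median of 0.27. BAD, the BH3-only protein regulated by growth factor phosphorylation, changed by 0.31 in MYC MUT (adjusted p = 0.0215) and 0.37 in SWP (adjusted p = 0.026), neither past the fold threshold. HRK was at 0.65 in SWP against MYC WT (adjusted p = 0.0656), and with the block it was called (adjusted p = 0.000724).

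In a list of caspase and apoptosome genes, CASP10, an initiator caspase of the death receptors, fell in MYC MUT against MYC WT (-0.67, adjusted p = 0.000588) and rose by 0.50 in SWP against MYC WT (adjusted p = 0.0123). Between MYC MUT and SWP its difference was -1.18 (adjusted p = 1.05e-05). Of 5 tested inhibitor of apoptosis genes, BIRC3 alone rose in MYC MUT (0.98, adjusted p = 0.0159), from 18, 29 and 28 normalized counts to 43, 52 and 55, and it was called in SWP with the block only (0.84, adjusted p = 0.0142). Of 11 tested death receptor and adaptor genes, TNFRSF10D rose (0.78, adjusted p = 0.0429) and TNFRSF25 (-1.05, adjusted p = 0.000632) and FAS (-0.51, adjusted p = 0.0174) fell in MYC MUT against MYC WT. None of them was called in SWP against MYC WT, and against SWP TNFRSF10B and TNFRSF10D were called higher in MYC MUT and TNFRSF25 lower. Of all genes 21.4% were called in MYC MUT against MYC WT, 5.13% in SWP against MYC WT and 20.6% in MYC MUT against SWP.

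Of 20 p53 pathway genes, 1 rose and 1 fell in MYC MUT against MYC WT, where 21.4% of all genes tested were called. The cyclin-dependent kinase inhibitor CDKN1A had 4501, 2858 and 3209 normalized counts in MYC WT and 9960, 8566 and 8056 in MYC MUT (log2 fold change 1.35, adjusted p = 0.000198), and SESN2, which also answers to ATF4, fell by 1.00 (adjusted p = 0.0156). In SWP against MYC WT 1 of 20 was called (5.13% of all genes), FDXR, which fell by 0.52 (adjusted p = 0.00114). There 2 of 20 had a positive log2 fold change, with a list median of -0.20, beside -0.06 over all genes. Set against SWP, 9 rose in MYC MUT, led by CDKN1A (1.36), and 2 fell, SESN2 and PERP, where 20.6% of all genes were called. BBC3, BAX and PMAIP1, which are p53 targets too, took values of -0.55, 0.12 and 0.24 there, beside a list median of 0.40 and 0.04 over all genes. A list of 11 stress response genes held transcription factors and also targets such as CHAC1. From it, E2F1 (0.58, adjusted p = 2.58e-05) and TP73 (0.54, adjusted p = 0.00136) rose and ATF4 fell in MYC MUT against MYC WT. JUN rose in SWP against MYC WT (0.51, adjusted p = 0.0095). In MYC MUT against SWP, E2F1 and FOXO3 rose and ATF4 and FOXO4 fell. CHAC1 changed by -1.67 in MYC MUT against MYC WT without passing the test (adjusted p = 0.141), and with the block it was called in SWP against MYC WT (-0.87, adjusted p = 0.0228) and in MYC MUT against SWP (-0.80, adjusted p = 0.0143). DDIT3 was called with the block in SWP against MYC WT (-0.67, adjusted p = 0.0481).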

How the data were processed

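RNA-seq of HEK293T cells was analysed, with 3 libraries each of MYC WT, MYC MUT and SWP. The authors prepared poly(A)-selected, strand-specific libraries, aligned reads to hg38 with bwa mem 0.7.17 (no spliced alignment), took out duplicates with Picard 2.18.7 and counted reads on GENCODE 42 genes. The counting tool and its use of strand are not given in the sources used here. As deposited, the values are a normalized signal, read counts per gene over a DESeq2 size factor for the library. Undoing this division made 100% of values whole within 0.001 and gave back 65024354 to 98497026 reads per library, used only in edgeR and DESeq2.

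Differences were tested with limma 3.58.1 (R 4.3.3), as lmFit and trended eBayes, on log2(normalized count + 1), which understates the change of low genes, with 9 libraries in 1 fit over 20884 genes with a mean of at least 10, and Benjamini-Hochberg adjustment. Genes were called beyond 0.5 in log2 fold change where the adjusted p was also under 0.05. Log2 differences carry 95% intervals that are not adjusted for the number of genes. The SE of a gene was the same in every comparison, as its spread was pooled over the 9 libraries. It does not follow the unlike spread of the lines. Symbols came from GENCODE 44, which matched 57754 of 58336 identifiers, and promoters from RefSeq. Both strands were searched for each motif, and the share of windows that hold it counts windows, some of which overlap.

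The members, gene lists and named genes (all 10 members, MYC, in each list the called genes with the largest rise and fall or those needed to make up counts of 5 or fewer, and the 3 genes most like BCL2 and BBC3) were chosen with earlier results of these data known. Values of USP9X, HUWE1, BTRC, FBXW7, VDAC2, FOXO1, FOXO3, FOXO4, BAD, HRK, CHAC1, DDIT3, MDM2, COL1A1 and the other called markers were picked after they were seen. Alternatives were pseudocounts of 0.1 and 10, no minimum, a minimum of 50, equal totals or upper quartiles, no trend, only the 2 groups compared, a replicate block, edgeR 4.0.16 with TMM, DESeq2 1.42.0, other fold thresholds, and leaving out each library. They were run for the 10 members and MYC, and the block for every gene. The rule for pairing was that each pair of same-numbered libraries must deviate together (r over 0.1). By it MYC WT and SWP were paired (0.555, 0.403 and 0.102, with replicate 3 of MYC WT closer to replicate 2 of SWP at 0.166). So were MYC MUT and SWP (0.333, 0.241 and 0.232), and MYC WT and MYC MUT were not. Deviations from a line's mean cancel out over its replicates, so the correlations of 1 pair of lines are not independent of each other. On simulated data for MYC MUT against MYC WT with 200 of 20734 genes changed, limma recovered 178 (89%) and called 5 others. Of the 178, 100 had a simulated log2 change of 2 and 78 of 1, in either direction. Changes below 1, such as those of the 10 genes, were not simulated. Libraries of a line were not copies of each other (chi-square divided by its degrees of freedom, 8.32 to 55.6). Figures were drawn with matplotlib 3.10.9. The other assays of the series were not analysed here. Some genes of the caspase list are not reported here.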

Additional observations from a re-analysis of the deposited data

Results flagged for a closer look

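The change against MYC WT differed between the edited lines in 5 of the 10 members. The measure was a limma adjusted p under 0.05, without the replicate block, for the difference itself (MYC MUT minus SWP). The log2 difference was 0.34 for BCL2, 0.36 for MCL1, 0.49 for BCL2L2, 0.34 for BCL2L11 and -0.55 for BBC3. It was seen in 6 of the 10 other tested BCL2 family genes: 0.86 for BCL2L1, 0.91 for BIK, 0.33 for BNIP3L, -0.34 for BNIP3, -0.43 for BCL2L12 and -1.39 for BOK. For MYC it was -0.87. The background is 38.0% of all genes tested.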

How the results depend on the processing

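Of the 30 log2 fold changes of the 10 genes (3 comparisons), 19 kept their direction and their side of the call in all 20 alternatives. Of the others, 7 changed sign somewhere, the largest of them 0.24 in the main fit, and 4 changed call. Beyond these settings the cause was not tested. An adjusted p that crossed 0.05 below the fold threshold did not count as a changed call. At an adjusted p under 0.05 alone, 8021 genes were called in MYC MUT against MYC WT, 2083 in SWP against MYC WT and 7944 in MYC MUT against SWP, with 2, 1 and 5 of the 10 members. Beyond a log2 fold change of 1 the counts were 1648, 505 and 1723 genes, with 0 members in each. In SWP against MYC WT 1 member was called with the replicate block and 1 by DESeq2, and 0 to 1 when a library was left out. In MYC MUT against SWP 2 were called by DESeq2, 2 with equal totals, and 0 to 2 when a library was left out. With equal totals and upper quartiles PMAIP1 in MYC MUT against MYC WT moved to 0.046 and 0.0094, and BID with equal totals to 0.023. In SWP against MYC WT, BCL2 became 0.0338 with DESeq2, 0.0339 with edgeR, 0.0340 with equal totals and 0.0175 with upper quartiles, and BAK1 became 0.0364, 0.0371, 0.0483 and 0.0319. Leaving out 1 library gave ranges of -0.14 to 0.058 for PMAIP1, -0.18 to 0.057 for BID and -0.027 to 0.46 for BMF in MYC MUT against MYC WT. In SWP against MYC WT it gave -0.098 to 0.070 for BCL2, -0.18 to 0.049 for MCL1, -0.14 to 0.11 for BAK1, -0.050 to 0.19 for BID and -0.29 to 0.12 for MYC.

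For MYC WT and MYC MUT, which share only replicate numbers (correlations of 0.328, 0.146 and 0.049, with replicate 3 of MYC WT closest to replicate 2 of MYC MUT), the replicate block called 4970 genes against 4476 and again 0 members, and of the list genes BTG2 and CHAC1 in addition. In that comparison MCL1, BAK1 and BBC3 moved under an adjusted p of 0.05 with the block (limma, 0.00245, 0.00717 and 0.00930). These lines were not paired by the rule above. The fit without the block was the main one for every comparison, also for the lines that were paired. For the paired lines, counts of members with the block are given beside it. The block changed no other call of a member than BMF in SWP.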

Other observations

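Beyond the genes described above, FADD, the adaptor that joins death receptors to caspase-8, had 4307, 3187 and 3792 normalized counts in MYC WT, 4994, 4947 and 5351 in MYC MUT, and 5677, 4864 and 5304 in SWP. Both edited lines lay above all MYC WT libraries, with log2 fold changes of 0.45 and 0.50 (limma adjusted p = 0.00552 and 0.0109), just inside the fold threshold. APAF1, the scaffold of the apoptosome, changed by 0.31 in SWP against MYC WT (adjusted p = 0.0175) and 0.09 in MYC MUT (adjusted p = 0.334). Of the 13 promoter windows of the family genes, 7 held a G4 motif, where 25.0% of all windows did. Several of these are windows of BID, some of which overlap. By gene they were 4 of the 8 with a window, BCL2L11, BAK1, PMAIP1 and BID, and the share of all genes was not computed.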
